A study of Homo sapiens with 4 samples.

Results

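The transcripts described here are those of 9 genes for claudins and other tight junction proteins: CLDN1, CLDN3, CLDN4, CLDN7, CLDN12, OCLN, MARVELD2, TJP1 and F11R. They were chosen by symbol, and each was found once among the 61228 gene rows of the count files. RNA-seq had been done on H1792, an established human lung cancer cell line whose genotype is given as WT, in 2 libraries from cells kept with the solvent DMSO and 2 from cells kept with ACBI1, all for 96 h. ACBI1 is a PROTAC, a molecule that brings a target protein to the VHL ubiquitin ligase for degradation. Its targets are the SWI/SNF chromatin remodelling ATPases SMARCA2 and SMARCA4 and the subunit PBRM1. The dose is written as 1 mM, a unit that could not be checked from counts. The comparison asks which transcripts differed when the cells received the degrader. The labels do not say whether the libraries of a group came from separate cultures, so the p-values measure only the spread between these libraries, and all values come from 1 cell line.

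Tight junctions seal the space between neighbouring epithelial cells and set which ions and solutes pass between them. Claudins span the membrane and form the strands of the junction, each type with its own barrier or pore character. Occludin and tricellulin, the products of OCLN and MARVELD2, belong to the MARVEL family of membrane proteins and join those strands, tricellulin mainly where cells meet at tricellular corners. The product of F11R, JAM-A, is an immunoglobulin-type adhesion molecule of the junction, and the product of TJP1, ZO-1, is the scaffold under the membrane that ties claudins to actin.

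Counts assigned to genes summed to between 64281850 and 86010100 in a library, and mitochondrial genes held 5.31% to 6.85% of them. The 7 epithelial markers summed to 984 and 1044 CPM (counts per 1000000 counts, with library sizes scaled by TMM) in the DMSO libraries and to between 205 and 325 CPM in the ACBI1 libraries. The keratins KRT7, KRT8 and KRT18 made up most of that sum and, with KRT19, were called lower, while EPCAM and MUC1 were not called (edgeR log2 changes 1.32 and -1.10). CDH1, the epithelial cadherin, had only 4 to 16 counts in a library, and of the lung lineage markers NKX2-1 had 0 counts in each library. ACBI1 acts on proteins, and transcripts of its targets were present in both groups. SMARCA4 was at 250 ± 47.8 and 406 ± 11.3 CPM with DMSO and ACBI1 (SD, n = 2). SMARCA2 was at 23.6 ± 1.17 and 17.9 ± 0.639 CPM, and PBRM1 at 50.1 ± 6.87 and 53.6 ± 2.80 CPM (SD, n = 2). None of these 3 passed the edgeR test described next (adjusted p 0.0583, 0.163 and 0.734). At an unadjusted p under 0.05, 1 of them, SMARCA4, was higher. It was called higher by DESeq2 (adjusted p 0.0149), and by edgeR without DMSO replicate 1 (0.0186) and with the block of replicate numbers (0.00248), which also called SMARCA2 lower (0.0394). Protein levels were not analysed here.

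Of the 9 genes, CLDN4, CLDN7 and CLDN12 fell with ACBI1, none rose, and the other 6 did not pass the test. All 9 were tested with edgeR's quasi-likelihood test, and "called" means an adjusted p (Benjamini-Hochberg, over all 19159 tested genes) under 0.05. The 3 calls among 9 genes stand beside 17.4% of all tested genes called in either direction, 10.6% lower and 6.75% higher. Calls over all genes varied with the libraries in the fit: 21.3% and 12.8% of tested genes were called without DMSO replicates 1 and 2, and 6.89% and 8.84% without ACBI1 replicates 1 and 2. In those 4 fits 4, 3, 2 and 2 of the 9 genes were called. Called genes made up 23.5% with DESeq2, 16.8% without a filter on low counts, 22.9% with a mean of at least 5 CPM, 4.09% at an adjusted p under 0.01 and 41.3% with the replicate number as a block. At an unadjusted p under 0.05, 4 of the 9 were lower and 0 higher by edgeR, and DESeq2 called 4 lower and 0 higher. Of all 19159 tested genes, 3549 were lower and 2941 higher at that unadjusted threshold. DESeq2 called 2604 of them lower and 1907 higher. The median log2 change was -0.45 over the 9 genes and -1.74 over the 5 claudins among them, beside 0.01 over all tested genes. These medians are the values of F11R and CLDN3, neither of which was called. In 6 of the 9 genes the DMSO and ACBI1 libraries did not overlap, which was so for 63.2% of all tested genes. The log2 changes of the 5 claudins ran from -5.07 to -0.21, and those of OCLN, MARVELD2, TJP1 and F11R from -0.45 to 0.41, so that the ranges met at CLDN1 and F11R. The difference between claudins and the other members was not tested.

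**Figure D1:**
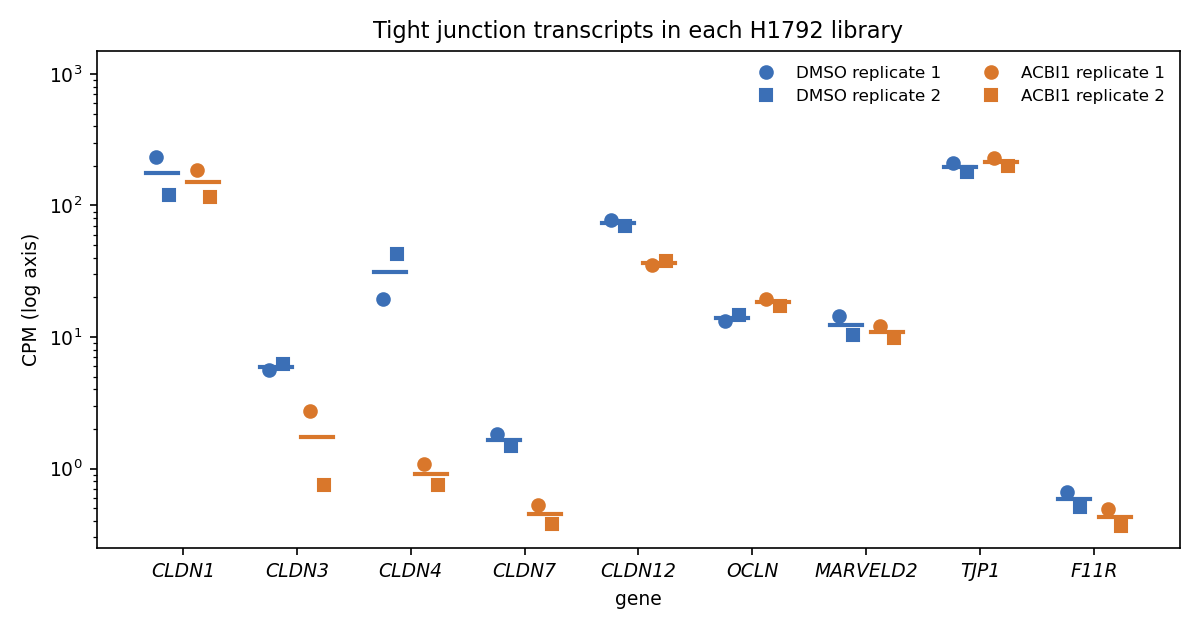
CPM of the 9 genes (log axis) in each of the 4 libraries; circles are replicate 1, squares are replicate 2, and horizontal lines are group means. CLDN4 lies at 19.4 and 42.7 CPM with DMSO and at 1.08 and 0.747 CPM with ACBI1, the widest gap of the 9 genes, while the CLDN1, MARVELD2 and TJP1 libraries overlap between groups.

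CLDN4, a claudin of tight epithelia and a receptor of a Clostridium perfringens toxin, had the largest fall. Its transcripts lie at chr7:73799542-73832693 on the plus strand (GRCh38, GENCODE 29), and no exon of another gene overlaps its exons there. It had 1578 and 3072 counts in DMSO replicates 1 and 2, or 19.4 and 42.7 CPM, against 97 and 49 counts with ACBI1, or 1.08 and 0.747 CPM. DMSO replicate 1 held only 0.454 of the CPM of DMSO replicate 2, yet it was 17.9 times the higher ACBI1 library. The log2 change was -5.07 (SE 0.48, edgeR adjusted p 0.00357), a fold of 33.6, and the change was lower than that of all but 1.12% of the tested genes. It was called with each library left out in turn, with log2 changes of -4.40 without DMSO replicate 2 and -5.53 without DMSO replicate 1.

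CLDN3, which encodes a sealing claudin, is the neighbour of CLDN4 at chr7:73768997-73770270 on the minus strand, 29272 bases away, and was measured at 5.60 and 6.22 CPM with DMSO and at 2.76 and 0.747 CPM with ACBI1. Both ACBI1 libraries lay below both DMSO libraries, but the ACBI1 libraries differed 3.69-fold, resting on 247 and 49 counts. Its log2 change was -1.74 (SE 0.59), which was not called (edgeR adjusted p 0.0957). Leaving out ACBI1 replicate 1 gave -2.97 with an adjusted p of 0.0142, leaving out DMSO replicate 1 gave -1.81 (0.0368), and leaving out ACBI1 replicate 2 gave -1.11 (0.143), all by edgeR. CLDN3 was also called by DESeq2 (adjusted p 0.00903), in a fit blocked on replicate number (log2 change -1.95, edgeR adjusted p 0.00260) and when no filter on low counts was used (edgeR adjusted p 4.81e-05). The protein-coding neighbours on either side of the pair were METTL27 and ABHD11. METTL27, 1897 bases beyond CLDN4, was called lower with a log2 change of -1.27 (edgeR adjusted p 0.0452), though not without DMSO replicate 2, ACBI1 replicate 1 or ACBI1 replicate 2 (adjusted p 0.166, 0.178 and 0.114), and ABHD11, 30130 bases beyond CLDN3, was not called (log2 change 0.08, adjusted p 0.871). The neighbours were looked up after the members' values had been seen.

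The sequences before the start sites of CLDN4 and CLDN3 are shown because these neighbouring claudin genes had promoters of different composition. RefSeq windows of the 250 bases before a start (GRCh38.p14) matched 8 of the 9 genes, in 13 windows, since some genes have several starts. In the CLDN4 window, TGANTCA (the same on both strands) occurred at 242 and 161 bases before the start. It was searched as a loose pattern for AP-1 factors, with any base at N. The match at 242 bases reads TGATTCA and that at 161 bases TGACTCA. The loose pattern was found in no other member's window and in 6.57% of the 35116 windows searched. The RefSeq start used for CLDN4 lies inside its GENCODE 29 span (chr7:73799542-73832693). These matches are therefore farther from CLDN3 than the 29272 bases between the 2 gene spans. The 30 bases around each match, 5′ to 3′ on the plus strand with the match in capitals, lie at chr7:73830746-73830775 and chr7:73830824-73830853.
CLDN4, match at 242 bases: ctgggctgTGATTCAgtgtctgtctcccgg
CLDN4, match at 161 bases: agactggatagTGACTCAgggacccggggc
The CLDN3 window, chr7:73770271-73770520 on the minus strand, has no such match and 4 matches of GGGCGG or its reverse complement (the GC box, in capitals).
CLDN3, 250 bases before the start: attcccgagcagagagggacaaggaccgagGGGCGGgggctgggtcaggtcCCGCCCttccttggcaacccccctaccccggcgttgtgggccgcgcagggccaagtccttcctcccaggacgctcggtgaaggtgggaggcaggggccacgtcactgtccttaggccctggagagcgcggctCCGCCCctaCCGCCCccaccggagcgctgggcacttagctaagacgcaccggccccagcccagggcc
The CLDN4 window held 58.8% G and C and 4 CG steps, against 71.6% and 19 in the CLDN3 window and medians of 58% and 11 over all windows. The GC box occurred in 9 of the 13 member windows, from 7 genes, and in 42.6% of all windows. The E-box CAGGTG (either strand), which the repressors of the SNAI and ZEB families bind, occurred in 4 member windows, from CLDN7, OCLN and TJP1, and in 17.5% of all windows, with 4 of its matches in the second CLDN7 window. Neither AACCGGTT, the site of grainyhead-like factors (0.117% of all windows), nor TATAAA (10.7%), both searched on both strands, was in a member window. These matches describe letters only, and binding was not measured.

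CLDN7, a claudin known to bind EPCAM, was a rare transcript that also fell. It lies at chr17:7259903-7263983 on the minus strand, and 12.3% of its exonic length is shared with other genes, so that some reads could be lost or shared. It had 148 and 106 counts with DMSO and 47 and 25 with ACBI1, or 1.82 and 1.47 against 0.525 and 0.381 CPM. The groups did not overlap, and the log2 change was -1.85 (SE 0.39, edgeR adjusted p 0.0271). The call depended on both ACBI1 libraries: without ACBI1 replicate 1 the log2 change was -2.10 (edgeR adjusted p 0.0714) and without ACBI1 replicate 2 it was -1.66 (adjusted p 0.104).

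CLDN12, a widely expressed claudin without the C-terminal PDZ-binding motif that most claudins use to bind ZO proteins, fell from 77.7 and 69.7 CPM with DMSO to 35.3 and 37.7 CPM with ACBI1. These values rested on 6333 and 5020 counts with DMSO and 3157 and 2473 with ACBI1. Its replicates were close to each other in both groups, and the log2 change was -1.02 (SE 0.15, edgeR adjusted p 0.0113), a fold of 2.02. Without ACBI1 replicate 1 the size was nearly the same, -0.96, with an edgeR adjusted p of 0.0703. The gene model at chr7:90383721-90513402 on the plus strand shares 16.3% of its exonic length with GTPBP10, CDK14 and 2 non-coding genes.

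CLDN1, whose protein is needed for the barrier of the skin, was the most abundant member per length, and did not pass the test. It had 232 and 120 CPM with DMSO (replicates 1 and 2) and 187 and 116 CPM with ACBI1. Replicate 1 exceeded replicate 2 by 1.93-fold with DMSO and 1.61-fold with ACBI1, a wider spread than the gap between the group means of 176 and 152 CPM. The log2 change was -0.21 (SE 0.36, edgeR adjusted p 0.727), with an unadjusted 95% interval from -1.10 to 0.67. Its sign depended on the libraries in the fit: it was 0.34 without DMSO replicate 1 and 0.08 without ACBI1 replicate 2. With all 4 libraries it stayed negative in 8 other settings, from -0.23 to -0.12, and was called in none. With the replicate number as a block it was -0.18 (SE 0.14, edgeR adjusted p 0.328). CLDN1 lies at chr3:190305701-190322475 on the minus strand.

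**Figure D2:**
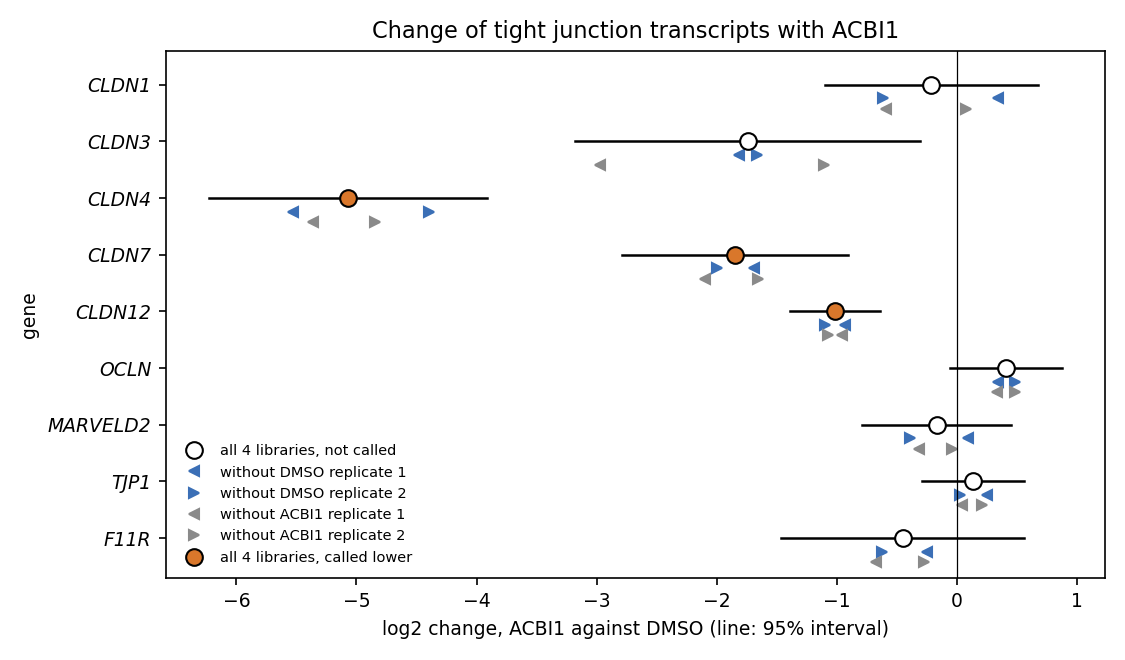
Log2 change (ACBI1 against DMSO) of the 9 genes; circles are the fit on all 4 libraries (filled where called lower), lines are its unadjusted 95% intervals, and triangles are the fits with 1 library left out. CLDN4 stays between -5.53 and -4.40 with a library left out, CLDN3 ranges from -2.97 to -1.11, and CLDN1 and MARVELD2 take both signs.

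Neither transcript of the MARVEL proteins passed the test. OCLN, at chr5:69492292-69558104, was at 13.2 and 14.6 CPM with DMSO and at 19.5 and 17.4 CPM with ACBI1. The ACBI1 libraries lay above the DMSO libraries by a small margin, and the log2 change was 0.41 (SE 0.19) and not called (edgeR adjusted p 0.193, unadjusted 95% interval -0.06 to 0.88). MARVELD2, 47962 bases before OCLN at chr5:69415065-69444330 and also on the plus strand, was at 14.4 and 10.4 CPM with DMSO and 12.1 and 9.91 CPM with ACBI1. Here the groups overlapped, and the log2 change was -0.17 (SE 0.26, edgeR adjusted p 0.692, unadjusted 95% interval -0.79 to 0.45), or 0.092 without DMSO replicate 1 (adjusted p 0.880). Neither call changed with any library left out. With all 4 libraries the MARVELD2 change stayed negative in 8 other settings, from -0.18 to -0.08.

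TJP1, the scaffold gene, did not pass the test. It was at 210 and 181 CPM with DMSO and 228 and 201 CPM with ACBI1, on 13015 to 20396 counts a library. The groups overlapped, the log2 change was 0.13 (SE 0.17, edgeR adjusted p 0.647), and the unadjusted 95% interval ran from -0.29 to 0.55, which does not reach the log2 changes of CLDN4, CLDN7 or CLDN12. TJP1 lies at chr15:29699367-29968865 on the minus strand.

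F11R could not be judged as the other members could. It had 54 and 37 counts with DMSO and 44 and 24 with ACBI1, or 0.663 and 0.514 against 0.491 and 0.366 CPM. In GENCODE 29 a read-through gene, ENSG00000270149, covers 36.6% of the exonic length of F11R (chr1:160995211-161021348, minus strand), and it had 0 counts in each library. The rule by which reads in shared exons were assigned is not given in the sources used here, so how far these counts reflect F11R was not tested. The DMSO libraries lay above the ACBI1 libraries by a factor of 1.05 at the nearest pair, and the log2 change was -0.45 (SE 0.42, edgeR adjusted p 0.496).

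Levels of different genes were compared per length, as CPM per kb of merged exons in GENCODE 29. With DMSO the order of the means was CLDN1 (48.1 ± 21.6), TJP1 (17.4 ± 1.85), CLDN12 (10.9 ± 0.839), CLDN4 (6.60 ± 3.51), CLDN3 (4.64 ± 0.348), MARVELD2 (2.31 ± 0.532), OCLN (2.05 ± 0.147), CLDN7 (0.660 ± 0.0977) and F11R (0.116 ± 0.0208), each in CPM per kb (SD, n = 2). With the longest transcript as the length, CLDN12 was at 20.7 with DMSO and 10.2 CPM per kb with ACBI1, and kept the third place. CLDN4 and CLDN3 did not differ beyond their spread with DMSO, nor did MARVELD2 and OCLN. With ACBI1 the order was CLDN1 (41.4 ± 13.7), TJP1 (19.0 ± 1.71), CLDN12 (5.41 ± 0.257), OCLN (2.73 ± 0.228), MARVELD2 (2.05 ± 0.291), CLDN3 (1.38 ± 1.12), CLDN4 (0.195 ± 0.0505), CLDN7 (0.182 ± 0.0408) and F11R (0.0846 ± 0.0175), in the same unit. CLDN4 moved from the fourth place to the seventh (the eighth when the longest transcript was used as the length), and CLDN3, CLDN4 and CLDN7 were then all below OCLN and MARVELD2. CLDN4 and CLDN7 differed by less than their spread with ACBI1, as did MARVELD2 and CLDN3.

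The claudin family as a whole was dominated by genes that were not called. Of 13 claudin genes with at least 10 counts in a library, CLDN1 made up 54.2% and 37.1% of the summed level (CPM per kb) with DMSO (replicates 1 and 2) and 54.7% and 42.1% with ACBI1. CLDN11, known from myelin and the testis, made up 24.1% and 26.8% with DMSO and 32.1% and 43.4% with ACBI1. CLDN12 went from 9.87% and 11.7% to 5.60% and 7.40%. CLDN4 made up 3.53% and 10.3% with DMSO and 0.247% and 0.210% with ACBI1, and CLDN3 3.76% and 5.52% against 2.32% and 0.776%. The groups did not overlap in the shares of CLDN11, CLDN12, CLDN4 and CLDN3, nor in those of CLDN2, CLDN6, CLDN7, CLDN16, CLDN23 and CLDN34. They overlapped in the shares of CLDN1, CLDN10 and CLDN15. Non-overlap was also common outside the claudins, at 63.2% of all tested genes by CPM. Shares are parts of a whole, so a share can rise because others fall. The summed level itself was 117 and 88.5 CPM per kb with DMSO and 93.4 and 75.6 with ACBI1, which overlapped. No test is given for shares, since 2 against 2 libraries cannot reach an exact two-sided permutation p under 0.05.

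**Figure D3:**
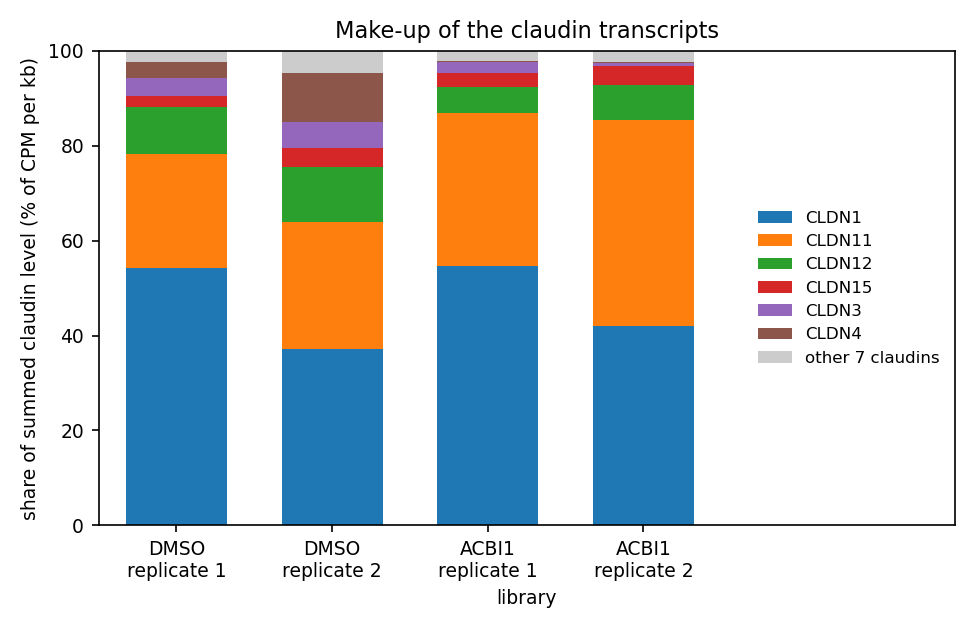
Share of each claudin in the summed claudin level (percent of CPM per kb of merged exons) in the 4 libraries, one stacked bar a library. CLDN1 and CLDN11 fill most of every bar, and CLDN4 shrinks from 3.53% and 10.3% with DMSO to 0.247% and 0.210% with ACBI1.

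Among 57 further tight junction genes, 39 could be tested, of which 2 rose and 5 fell. The 17.9% called is close to the 17.4% of all tested genes, and the median log2 change was 0.20. Of the other claudins and claudin-domain genes, 9 of 20 were tested, 2 were called lower, and 5 had no count in any library. A count of 0 leaves room for as much as 0.0335 to 0.0457 CPM, depending on the library. CLDN2, which forms a cation pore, had 17 and 293 counts with DMSO and 0 and 1 with ACBI1. The DMSO libraries differed widely, and summed counts per scaled library size were 314 times higher with DMSO, with a 95% exact interval from 55.8 to 12420 that covers counting error only. Its fitted log2 change was -8.03 (edgeR adjusted p 0.0401), or -4.70 without DMSO replicate 2, and it was not called without ACBI1 replicate 1 (-6.97, adjusted p 0.112), without ACBI1 replicate 2 (-10.44, adjusted p 0.0659) or by limma-voom (-6.32, adjusted p 0.0880). CLDND1, a claudin-domain gene, fell by 0.83 on the log2 scale (edgeR adjusted p 0.0198).

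The claudins with a mean of at least 1 CPM that were not called included CLDN11, at 105 and 88.6 CPM with DMSO and 112 and 122 CPM with ACBI1 (log2 change 0.27, edgeR adjusted p 0.301). The log2 change was -0.12 for CLDN15, -0.79 for CLDN23, -1.17 for CLDN10 and -0.16 for CLDND2 (adjusted p 0.771, 0.148, 0.115 and 0.787). CLDN16, a claudin of renal magnesium handling, starts next to CLDN1 on the opposite strand and was not called (log2 change 1.22, adjusted p 0.141). In GENCODE 29 the spans of the CLDN16 and CLDN1 genes lie 66 bases apart, and no exon of another gene overlaps theirs. Whether the gene models counted also keep them apart was not tested. Other genes share 46.1% of the exonic length of CLDN10 and 18.3% of that of CLDN11.

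Of the other membrane proteins of the junction, 8 of 12 were tested, 3 were called lower and 1 higher. The relatives of F11R went apart. JAM2 fell from 3.17 and 7.78 to 1.32 and 1.02 CPM, a log2 change of -2.22 (edgeR adjusted p 0.0319), and JAM3 rose from 0.233 and 0.986 to 4.09 and 3.67 CPM, a log2 change of 2.68 (adjusted p 0.0407). LSR, which recruits tricellulin to tricellular corners, fell from 1.68 and 1.58 to 0.402 and 0.366 CPM (log2 change -2.08, adjusted p 0.0165). BVES fell by 1.27 on the log2 scale (adjusted p 0.0170). EPCAM, the partner of claudin-7, was at 5.38 and 2.78 CPM with DMSO and 15.6 and 4.83 CPM with ACBI1, and was not called (log2 change 1.32, adjusted p 0.179). The calls of CLDND1, JAM2, JAM3, LSR and BVES were lost without ACBI1 replicate 1, with adjusted p of 0.101, 0.0722, 0.0796, 0.0650 and 0.0679. Without ACBI1 replicate 2 CLDND1, JAM2, JAM3 and LSR were not called (adjusted p 0.0927, 0.0881, 0.0575 and 0.0622), and JAM2 was not called without DMSO replicate 2 (log2 change -1.44, adjusted p 0.0660). The size of the JAM3 change rested on the DMSO libraries, at 1.98 without DMSO replicate 1 and 4.04 without DMSO replicate 2, both called.

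Scaffold and polarity genes were mostly not called. Among 14 tested scaffold and plaque genes, PATJ, a multi-PDZ protein of the Crumbs complex, rose from 12.3 and 9.45 to 34.9 and 26.8 CPM, a log2 change of 1.50 (edgeR adjusted p 0.0117) that was called with each library left out. The other 13 were not called, nor were the 8 tested polarity genes, whose median log2 change was 0.40. At an unadjusted p under 0.05 edgeR had 2 polarity genes higher and 1 lower, and DESeq2 called 1 higher and 1 lower. Of the scaffold and plaque genes, with PATJ, edgeR had 2 higher and 1 lower at that threshold, and DESeq2 called 2 higher and 1 lower. These counts stand beside 2941 higher and 3549 lower by edgeR at that threshold among all 19159 tested genes. DESeq2 called 1907 of all genes higher and 2604 lower.

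**Figure D4:**
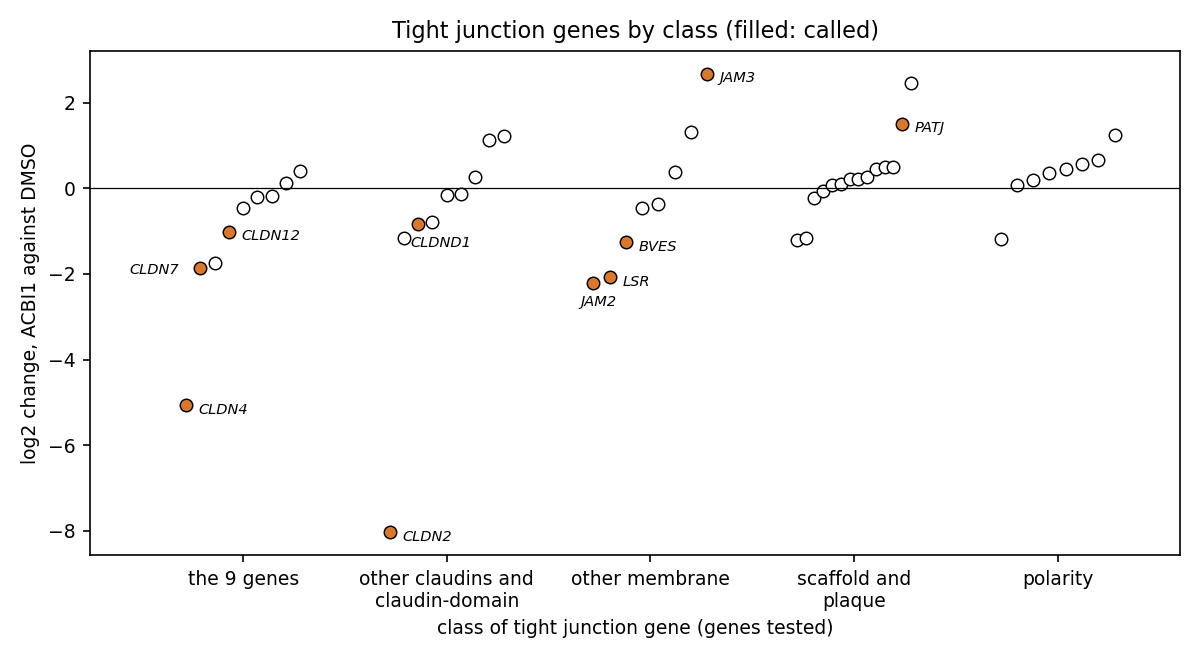
Log2 change (ACBI1 against DMSO) of each tested gene by class; filled circles with names were called, open circles were not. The 3 called members and 5 further genes lie below 0, whereas JAM3 and PATJ lie above it.

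Factors known to act on junction genes and the genes of other epithelial junctions were counted in the same fit. Of 11 tested regulators 5 were called, each lower, beside 10.6% of all tested genes called lower. At an unadjusted edgeR p under 0.05, 6 were lower and 1 higher, beside 3549 and 2941 of all 19159 tested genes. DESeq2 called 5 regulators lower and 1 higher, beside 2604 and 1907 of all genes. The epithelial activators ELF3 and KLF4 had log2 changes of -6.37 and -1.89 (edgeR adjusted p 0.00193 and 0.0153), and the repressors SNAI2 and ZEB2 had -3.01 and -1.58 (adjusted p 0.0138 and 0.00396). These 4 calls held with each library left out, though SNAI2 was at -3.74 without ACBI1 replicate 2. Of 14 tested adherens junction and desmosome genes, 4 were called lower and 1 higher, beside 10.6% and 6.75% of all tested genes. JUP, or plakoglobin, was at 112 and 331 CPM with DMSO and 2.87 and 12.8 CPM with ACBI1 (log2 change -4.83, adjusted p 0.0179), while NECTIN2 and PKP3 fell by 1.64 and 1.56 on the log2 scale (adjusted p 0.0116 and 0.0261) and PKP2 rose by 1.12 (adjusted p 0.0317). JUP was called with each library left out, at -6.28 when ACBI1 replicate 2 was dropped and at -3.85 when DMSO replicate 2 was. PKP3 was not called without ACBI1 replicate 2 (adjusted p 0.0648), and PKP2 was not called with any library left out (adjusted p from 0.0503 to 0.150).

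The 5 other genes with libraries nearest to those of CLDN4 were CCDC9B, TGM2, IL4I1, LINC03014 and RRAD. Nearness was the Euclidean distance of log2 CPM in the 4 libraries, centred on the DMSO mean, among the 11154 genes whose mean reached 5 CPM, and ran from 0.421 for CCDC9B to 0.753 for RRAD. TGM2, which encodes tissue transglutaminase, was at 1880 and 3321 CPM with DMSO and at 84.1 and 86.6 CPM with ACBI1. The genes were picked for their likeness to CLDN4 in these same libraries, so a shared order of replicates follows from that choice.

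Of the markers of other cell types, 2 of 3 for endothelium (PECAM1 and VWF) and 2 of 4 for fibroblasts (DCN and LUM) were called lower by edgeR (adjusted p 0.00431, 0.0130, 0.00425 and 0.0319). Of all tested genes, 10.6% were called lower. The 3 endothelial markers summed to 12.6 and 48.5 CPM in DMSO replicates 1 and 2 and to 0.0112 and 0.0457 CPM with ACBI1. Nearly all of this was PECAM1, with CDH5 at 0 to 4 counts in each library and VWF at 0 in both ACBI1 libraries. The 4 fibroblast markers, none of them at 0, summed to 345 and 752 CPM with DMSO and to 71.0 and 222 CPM with ACBI1. Most of that sum was COL1A1, which was not called (adjusted p 0.0860), and neither was PDGFRB (adjusted p 0.0967). At an unadjusted edgeR p under 0.05 all 4 fibroblast markers were lower, and DESeq2 called 3 of them lower. Of all 19159 tested genes, 3549 were lower at that unadjusted threshold, and DESeq2 called 2604 lower. The 4 blood markers reached at most 0.723 CPM in any library, with CD3E at 0. The endothelial and fibroblast sums were higher in DMSO replicate 2 than in DMSO replicate 1. The part of these markers in the falls of the claudins was not tested. In bulk RNA, fewer cells carrying a transcript and less of it per cell cannot be told apart.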

How the data were processed

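RNA-seq reads of 4 libraries were counted per gene by the authors; the deposited values are raw whole-number counts in the layout of htseq-count. The submitters' processing notes name TopHat2 2.1.1, HTSeq 0.11.0 and the build hg38. The annotation, strand setting and overlap rule are not given in the sources used here. Groups and replicate numbers came from the sample titles. The 5 lines for reads given to no gene (13.9% to 15.4% of the reads listed) were left out of library sizes and tests.

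Genes were filtered with filterByExpr (minimum count 10, minimum total 15), scaled by TMM and tested on treatment alone with edgeR 4.0.16 in R 4.3.3 (glmQLFit, glmQLFTest, two-sided), which gave a common biological coefficient of variation of 0.244. Standard errors of log2 changes were taken as the change over the root of its F statistic. The replicates of a group differed by more than sampling noise (chi-square per degree of freedom 158 and 102). Alternatives were other scalings, filters and thresholds, a replicate block, DESeq2 1.42.0, limma-voom (limma 3.58.1) and each library left out. Scripts were tested on simulated counts. Locations and lengths came from GENCODE 29 (GRCh38) and promoter windows from RefSeq (GRCh38.p14), both matched by symbol. The count rows hold symbols that GENCODE 29 gives under another name. The gene models counted may therefore differ from those used for lengths and exon overlaps.

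The members and gene lists were chosen with earlier results of these data known. Named are the 9 members, the degrader's targets, at most 6 called further tight junction genes a direction, further claudins with a mean of at least 1 CPM, at most 4 called genes in each other list, and the 5 profiles nearest to CLDN4.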

Additional observations from a re-analysis of the deposited data

How the results depend on the processing

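With 1 library left out in turn, the lone library of a group is assumed to vary like the other group. The number of called genes was 3331, and ranged from 1379 to 4292 with a library left out. It was 5518 without a filter, 783 at an adjusted p under 0.01 and 7909 with the replicate number as a block. The number of called members was 3, and ranged from 2 to 4 with a library left out; at 0.01 it was 1, CLDN4. The 7 calls among further tight junction genes became 1 to 12 with a library left out, 14 without a filter, 3 with a mean of at least 5 CPM, 11 with DESeq2, 19 with the block and 0 at 0.01 (15 had an unadjusted edgeR p under 0.05). With a library left out CLDN1 ranged from -0.62 to 0.34 (0.079 without ACBI1 replicate 2) MARVELD2 from -0.39 to 0.092 and PBRM1 from -0.041 to 0.25, none of them called. With all 4 libraries and a threshold of 0.05, CLDN3 was the only member whose call changed, becoming called lower with DESeq2, no filter and the block (with the block, log2 change -1.95, adjusted p 0.00260). For the targets, METTL27 and the named regulators, adherens junction and desmosome genes the same settings were tried after seeing the data: SMARCA4 was also called with upper quartile scaling, library size only, no filter, a mean of at least 5 CPM and limma-voom (adjusted p from 0.00834 to 0.0491), and METTL27 was not called with library size only (0.0548). CLDN3, CLDN7 and F11R could not be tested at a mean of at least 5 CPM. The 15 of 39 further tight junction genes with an unadjusted edgeR p under 0.05 stand beside 6490 of all 19159 tested genes. The labels do not say that replicate numbers pair libraries. Across 11160 genes, deviations of same-numbered libraries correlated at 0.612, which with 2 numbers is a hint from the data only. Using the longest transcript in place of merged exons moved 7 of 18 levels and 9 of 26 claudin shares by more than the SD. CLDN7 at 25 to 148 counts and F11R at 24 to 54 counts are limited by their low counts.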
